A study of Homo sapiens with 9 samples.

Results

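Genes for chromatin modifiers and remodelers were followed in human spinal cord organoids (SCOs) exposed to valproic acid (VPA) with and without Rapamycin. Members were all protein-coding genes outside the Y chromosome whose symbol begins with KDM, KAT, KMT, SETD, DNMT, TET, CHD, BRD, EHMT, PRMT or ARID and a number, or begins with SMARC, together with EZH1 and EZH2. This rule took 102 of the 31589 genes listed, and it used no measured value. DNA in the nucleus is wrapped around histones, and these proteins decide how readily it is read: writers add acetyl or methyl groups to histone tails, erasers remove them, readers bind them, and remodelers spend ATP to slide or evict nucleosomes. DNA methyltransferases (DNMTs) add methyl groups to cytosine and the TET enzymes oxidise them. Many of these genes are sensitive to dosage in the developing nervous system, where loss of 1 copy of CHD2, CHD8, ARID1B, SETD5, KAT6B or KMT5B is a known cause of neurodevelopmental disorder.

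VPA is an anti-seizure drug that inhibits histone deacetylases, and Rapamycin inhibits the kinase mTOR. The 9 libraries came from whole SCOs grown from WTC, a human induced pluripotent stem cell line, labelled wild type. They were poly(A)-selected RNA in 3 groups of 3: vehicle (FGF in the sample titles), VPA, and VPA+Rapamycin, each after 96 h of exposure. The study describes vehicle as FGF alone and VPA as given together with FGF. The title FGF therefore does not mark a treatment of vehicle only. The study's methods describe WTC clones edited to report SOX10, 2 of which also carry small insertions or deletions on the other SOX10 allele, and it pooled several SCOs of 1 clone for each sequenced vehicle or VPA library. The sample descriptions give libraries of the same replicate number 1 shared prefix in all groups, but these prefixes are not the clone names, so no library is tied to a named clone here. The p-values measure the spread between libraries of clones of 1 parental line, not between donors.

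Each library held between 15290325 and 17417368 counted reads, and the members together took 1.16 to 1.24% of them in vehicle, 1.02% in every VPA library and 1.06 to 1.08% in VPA+Rapamycin. Vehicle replicates 1 and 3 differed the most within a group (chi-square per gene of 35.0, where pairs of VPA libraries gave 4.53 to 7.03). Levels below are normalized counts, that is, read counts rescaled by the TMM method across all 9 libraries. Family shares and abundance rankings used FPKM (fragments per kilobase of gene, scaled to library size), the authors' deposited unit per gene length. Quartiles of level and comparisons with genes that share exons used counts, which are not divided by length. None of the 7 fixed neuron markers or 7 fixed neural progenitor markers had 0 reads over all 3 libraries of a group. ISL1 was close to 0 under VPA, at a mean normalized count of 1.98 ± 2.04 (SD, n = 3), and uneven in vehicle (58.3 ± 70.8). The summed neuron markers ranged from 1246 to 2127 CPM (counts scaled to library size) in vehicle, 1041 to 1128 with VPA and 1123 to 1176 with VPA+Rapamycin, and 6 of the 7 were lower with VPA and 3 with VPA+Rapamycin against vehicle. The summed neural progenitor markers ranged from 1796 to 2013 CPM in vehicle, 2099 to 2310 with VPA and 1886 to 2092 with VPA+Rapamycin. Among them HES5 was higher with VPA (mean normalized counts of 5222 and 10172) and NKX6-1 lower (2274 and 1006). The summed 7 mesenchymal markers ranged from 138 to 295 CPM in vehicle, 558 to 714 with VPA and 244 to 370.0 with VPA+Rapamycin. None had 0 reads over all 3 libraries of a group, but PRRX1 was uneven in vehicle (18.1 ± 31.3 normalized counts, SD). Of these 7 only COL1A1 and COL1A2, which carry most of the sum, were higher with VPA, none was lower, and 5 were lower in VPA+Rapamycin than in VPA. The 7 neural crest markers summed to 176 to 188 CPM, 119 to 161 and 162 to 194 in the same order, a sum carried mostly by NGFR (mean normalized counts of 2251, 2267 and 2707). Of the 6 that could be tested SOX10, FOXD3 and TFAP2A were lower with VPA. TFAP2A was uneven in vehicle (65.5 ± 80.2 normalized counts, SD, against 10.5 ± 6.28 with VPA). SOX10 had a vehicle mean of 281, which was 7.86 under VPA and 36.3 once Rapamycin was added. The last was still lower than in vehicle (log2 fold change -2.97 ± 0.47 (SE), edgeR adjusted p = 0.00229). Of the 5 tested between VPA+Rapamycin and VPA, 2 were higher and 0 lower. They were SOX10 (log2 fold change 2.19 ± 0.60 (SE), edgeR adjusted p = 0.0345) and FOXD3 (log2 fold change 1.13 ± 0.25 (SE), edgeR adjusted p = 0.0104). The 7 markers of cycling cells summed to 1946 to 2302, 2265 to 2414 and 1892 to 2176. Of these only PCNA was higher with VPA and none was lower. BUB1 and CCNB1 were lower in VPA+Rapamycin than in VPA and than in vehicle, and none was higher. The part of these shifts in the results was not tested, and in whole organoids fewer cells of a type and less RNA per cell cannot be told apart.

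In vehicle SCOs 98 of the 102 members lay above 1 FPKM and 49 above 10 FPKM, with a median of 9.55. The most abundant per length were PRMT1, the main arginine methyltransferase of most cells, at 69.8 ± 8.99 FPKM, and KDM1A, a histone demethylase of neural progenitors, at 68.3 ± 1.93 FPKM. At the other end SMARCA2 (0.213 ± 0.0548 FPKM) and CHD5 (0.116 ± 0.0220 FPKM) were barely present, and KDM4E and KDM4F were too low to test. DNMT3L was not analysed here. For 14 members exon bases are shared with another gene counted at over 10% of their own level, so part of their counts is uncertain: ARID4B, BRD3, BRD7, BRD8, BRD9, KAT5, KAT7, KDM2B, KDM5A, KMT2E, PRMT7, SETD6, SMARCC2 and SMARCD3. With overlaps of lower-counted genes included, 39 members share exon bases with another counted gene. PRMT5 is among them, with 27.1% of its exon bases shared with PRMT5-AS1.

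The first comparison asked what VPA did to these genes. Falls outnumbered rises among them. Among the 100 members tested 7 were higher at an adjusted p of at most 0.05, where 16.4% of all 17360 genes tested were, and 33 were lower, where 15.7% of all genes were. The median log2 fold change of the members was -0.24, against -0.0030 for all genes tested, and 77 of 100 estimates were below 0. The largest rises were in SMARCA2 and CHD5, and the largest falls in KMT5B, CHD2 and TET2, the 5 called members whose change reached 1 on the log2 scale. In 57 of the 100 members the 3 VPA libraries did not overlap the 3 vehicle libraries, against 47.5% of all genes tested. The 40 members called were all among the 57. They were called on these same libraries, so their lack of overlap adds no support. The shares of all genes, 16.4% higher and 15.7% lower, are the background for the counts by role as well. Leaving out vehicle replicate 3 raised the count of lower members to 50 and left 8 higher. The calls of 13 members were lost in at least 1 fit without a single library: BRD7 and PRMT5 among the higher (without any of the VPA libraries or without vehicle replicate 2), and ARID1A, ARID4A, BRD2, CHD1, CHD7, KAT8, KDM2A, KDM3A, KDM6A, KMT2B and KMT2E among the lower, most of them in the same 4 fits. With the replicate number as a block in the fit, BRD7, ARID1A, ARID4A, BRD2, CHD7, KAT8, KMT2B and KMT2E did not pass, which left 6 higher and 26 lower. After a log2 fold change ± gives the SE, and after a level or share the SD of 3 libraries.

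**Figure D1:**
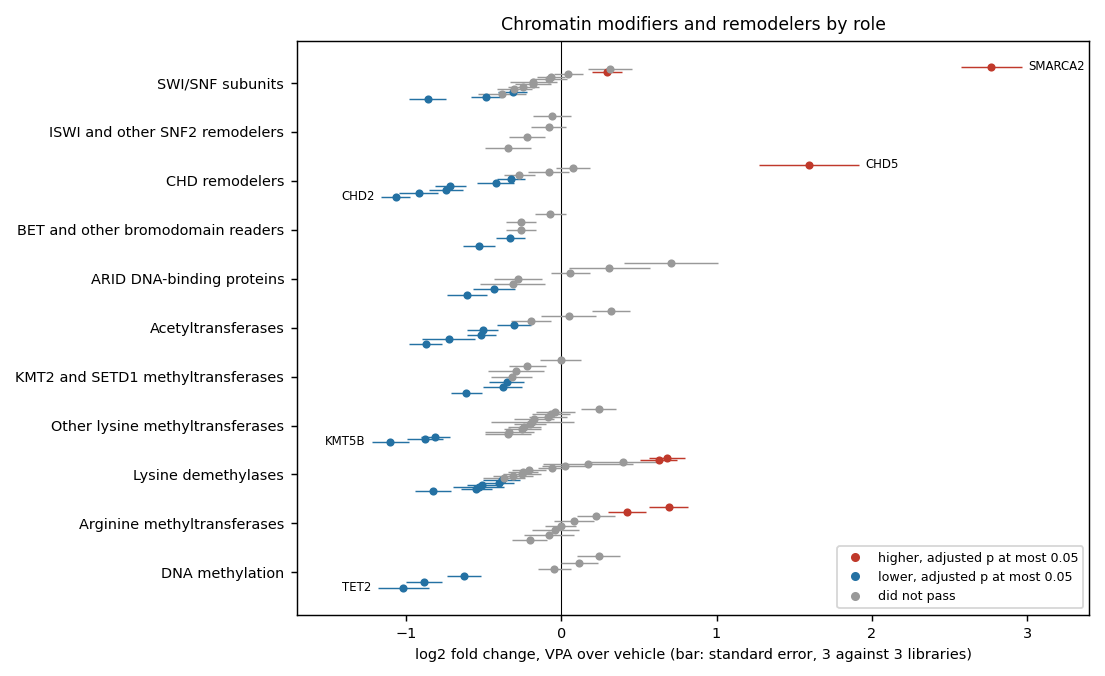
Log2 fold change of each tested member, VPA over vehicle (x axis, bars are standard errors from 3 against 3 libraries), with 1 row per role. Blue points (33 genes) were lower and red points (7 genes) higher, and the falls spread over 9 of the 11 roles while SMARCA2 and CHD5 stand far to the right.

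The members are long and well-expressed genes. Their median length in the tables was 8439 bases against 4528 for all genes tested, and 62 of the 100 lay in the top quartile of length. In that quartile 24.0% of all genes were lower with VPA, against 9.86% in the bottom quartile, and 29 of the 62 members there were lower. Level here is the mean normalized count, which is not divided by gene length. In the top quartile of level 23.3% of all genes were lower, and 28 of the 63 members there were. The part of length and level in the members' falls was not tested further.

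SWI/SNF complexes are ATP-driven remodelers built around 1 of 2 exchangeable motors, SMARCA2 (BRM) or SMARCA4 (BRG1). SMARCA2 (ENSG00000080503, chr9:1980290-2193624) stood at normalized counts of 52.8, 84.8 and 59.3 in the vehicle libraries, 477, 453 and 418 in VPA and 367, 329 and 406 in VPA+Rapamycin. Every treated library was above every vehicle library. With VPA the rise was 6.81-fold (log2 fold change 2.77 ± 0.20 (SE), edgeR adjusted p = 9.17e-06), the largest of any member. SMARCA4 stood at 5484–7261 in vehicle and 6078–6445 in VPA, with overlapping groups (log2 fold change -0.08 ± 0.11 (SE), edgeR adjusted p = 0.637). Per length SMARCA4 stayed far above its paralog: SMARCA2 made up 0.613, 1.03 and 0.909% of the FPKM of the pair in the vehicle libraries and 6.06, 5.95 and 5.21% in VPA. Its mean share was 0.849% ± 0.213 (SD, n = 3) in vehicle, 5.74% ± 0.463 with VPA and 4.59% ± 0.648 with VPA+Rapamycin (exact permutation test, two-sided, p = 0.1 for each treated group against vehicle, the smallest that 3 against 3 can give).

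The promoter of SMARCA2 is printed with those of CHD2 and KMT5B, the members with the smallest p among those raised and lowered by VPA. Each is 250 bases before and 50 bases after a RefSeq start on GRCh38.p14, read 5′ to 3′ on the gene's strand. Capitals mark matches on either strand to 4 motifs: AP-1 (TGANTCA), CRE (TGACGTCA), E2F (TTCCCGCC) and the GC box (GGGCGG).
SMARCA2 (chr9:2015097-2015396, plus strand): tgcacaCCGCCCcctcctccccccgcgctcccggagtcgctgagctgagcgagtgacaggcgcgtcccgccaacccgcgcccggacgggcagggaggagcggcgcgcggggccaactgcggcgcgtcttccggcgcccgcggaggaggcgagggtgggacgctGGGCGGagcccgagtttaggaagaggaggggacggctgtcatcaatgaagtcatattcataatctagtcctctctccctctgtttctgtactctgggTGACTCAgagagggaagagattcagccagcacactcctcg
CHD2 (chr15:92900074-92900373, plus strand): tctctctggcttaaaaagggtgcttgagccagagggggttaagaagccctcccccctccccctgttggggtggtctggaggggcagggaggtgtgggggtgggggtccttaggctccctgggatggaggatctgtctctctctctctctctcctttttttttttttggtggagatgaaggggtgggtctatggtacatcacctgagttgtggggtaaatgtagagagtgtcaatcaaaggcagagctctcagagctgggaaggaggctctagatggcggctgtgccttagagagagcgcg
KMT5B (chr11:68213599-68213898, minus strand): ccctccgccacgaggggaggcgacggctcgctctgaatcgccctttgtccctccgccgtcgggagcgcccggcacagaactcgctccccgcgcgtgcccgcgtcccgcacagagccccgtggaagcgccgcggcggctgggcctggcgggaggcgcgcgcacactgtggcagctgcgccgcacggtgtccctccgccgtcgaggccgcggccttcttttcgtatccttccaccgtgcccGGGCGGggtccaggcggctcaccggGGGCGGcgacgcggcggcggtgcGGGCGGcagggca
The SMARCA2 window holds 1 AP-1 match (TGACTCA) just after the start and 2 GC boxes, and its start lies 35057 bases inside the gene as the tables list it. KMT5B holds 3 GC boxes and 49 CG dinucleotides, and CHD2 holds none of these letters and 3 CG dinucleotides. A promoter was found for 89 of the 102 members. AP-1 letters stood in 4 of these 89 (SMARCA2, KDM4C, KDM6A and SMARCB1), or 4.49%, and in 4.17% of the 11146 promoters of protein-coding genes tested. E2F letters also stood in 4 members (BRD7, KDM1B, SMARCA1 and SMARCA5), against 5.11% of the protein-coding genes, CRE letters in none, against 3.06%, and the GC box in 62 members or 69.7%, against 70.2%. Over all 35116 promoters of that length in the reference, other gene classes included, the shares were 7.71% for AP-1, 3.16% for E2F, 1.85% for CRE and 45.0% for the GC box. Of the 6 raised members with a promoter 2 held the AP-1 letters, and of the 28 lowered members 1 did. The 2 raised members were SMARCA2 and KDM4C, and the KDM4C start too lies inside the gene as listed, by 37110 bases. E2F letters likewise stood in 2 of the 6 raised members (BRD7 and KDM1B), and in none of the 28 lowered. These matches are letters in a window and were not tied to binding of any factor.

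No other core SWI/SNF subunit passed. SMARCC1, a scaffold subunit, stood at 4914–5581 in vehicle and 5441–5658 in VPA (log2 fold change 0.05 ± 0.09 (SE), edgeR adjusted p = 0.738). SMARCB1, SMARCC2, SMARCD1, SMARCD2 and SMARCE1 had estimates between -0.38 (SMARCE1) and -0.07 (SMARCD1) and none passed. The DNA-binding ARID subunits fell. ARID2, which defines the PBAF form, went from 1669, 1953 and 2181 in vehicle to 1081, 1106 and 1035 in VPA, and the groups did not overlap (log2 fold change -0.86 ± 0.12 (SE), edgeR adjusted p = 4.27e-04). ARID1B and ARID1A, alternative subunits of the BAF form, also fell (-0.48 ± 0.10, edgeR adjusted p = 0.00342, and -0.31 ± 0.09, edgeR adjusted p = 0.0238, log2 fold changes). BRD7, a bromodomain subunit of PBAF, rose from 2005–2205 to 2535–2728 (log2 fold change 0.30 ± 0.10 (SE), edgeR adjusted p = 0.034). Its exons share 42.3% of their bases with ADCY7 on the opposite strand, whose mean count was 10.3% of that of BRD7, and reads of the pair cannot be told apart without strand. BRD9, of the non-canonical form, did not pass (log2 fold change -0.30 ± 0.11 (SE), edgeR adjusted p = 0.0583). In all 2 of the 14 SWI/SNF members rose and 3 fell, with a median log2 fold change of -0.18.

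Of the 10 CHD remodelers 6 were lower and 1 higher. CHD2, which deposits histone H3.3 and whose loss causes epileptic encephalopathy, stood at 3121, 3148 and 3044 in the vehicle libraries, 1504, 1539.8 and 1439.7 in VPA and 1732, 1862 and 1873 in VPA+Rapamycin. All 3 VPA libraries lay below all vehicle libraries, at a mean of 48.1% of vehicle (log2 fold change -1.07 ± 0.09 (SE), edgeR adjusted p = 3.00e-05). CHD3, a motor of the NuRD repressor complex, fell from 2150.2, 2393 and 1880.1 to 1018, 1131 and 1277 (log2 fold change -0.92 ± 0.12 (SE), edgeR adjusted p = 3.77e-04). Its sister motor CHD5, known from neurons, was the 1 CHD gene that rose, from 22.5, 15.2 and 19.4 to 58.2, 53.0 and 63.8 (log2 fold change 1.60 ± 0.32 (SE), edgeR adjusted p = 0.00353), and it stayed low. CHD4, the third NuRD motor, stood at 671–902 in vehicle and 704–748 in VPA (log2 fold change -0.08 ± 0.13 (SE), edgeR adjusted p = 0.672). Of the class III remodelers, CHD9 fell from 2964–3671 to 1978–2061 (log2 fold change -0.74 ± 0.11 (SE), edgeR adjusted p = 5.44e-04) and CHD6 from 2161–2502 to 1393–1444 (log2 fold change -0.71 ± 0.10 (SE), edgeR adjusted p = 4.62e-04). CHD7, which is mutated in CHARGE syndrome and needed in neural crest, fell from 6094–6865 to 5195–5427 (log2 fold change -0.32 ± 0.09 (SE), edgeR adjusted p = 0.0203). CHD8, linked to autism, did not pass (log2 fold change -0.27 ± 0.10 (SE), edgeR adjusted p = 0.0574). CHD1 was also lower (-0.42 ± 0.12, edgeR adjusted p = 0.0201). None of the 4 ISWI and other SNF2 remodelers passed, with SMARCA1 at -0.22 ± 0.12 and SMARCA5, the ISWI motor of most cells, at -0.06 ± 0.12.

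**Figure D2:**
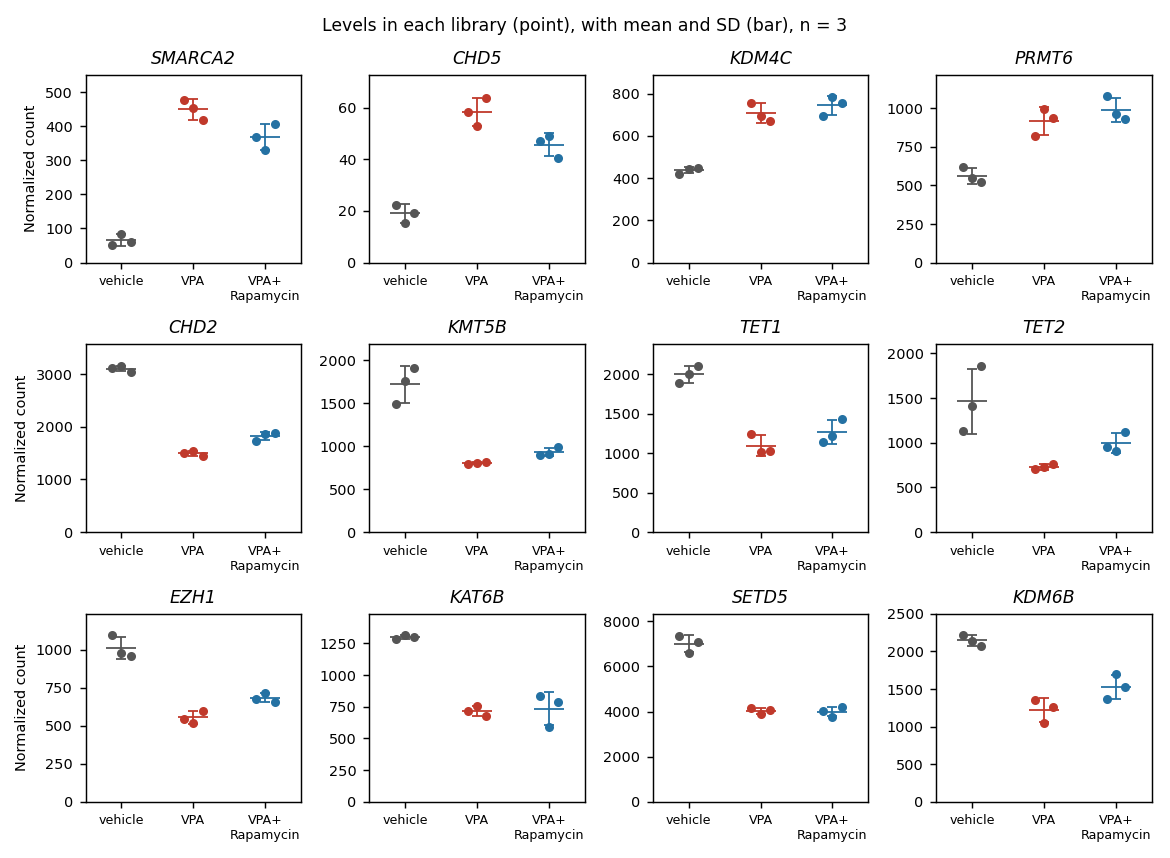
Normalized counts (y axes, from 0) of 12 members in each of the 9 libraries, with points for libraries and bars for the mean and SD of 3. The 4 genes of the top row were higher in all VPA libraries than in any vehicle library, and the other 8 lower.

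Of the 8 acetyltransferases that the rule names, writers that oppose the deacetylases VPA inhibits, 5 fell and none rose. KAT6B, of the MYST family, stood at 1285, 1313 and 1302 in vehicle and 713, 755 and 678 in VPA, without overlap (log2 fold change -0.87 ± 0.11 (SE), edgeR adjusted p = 2.01e-04). Its paralog KAT6A fell from 3327–3631 to 2429–2510.5 (log2 fold change -0.51 ± 0.09 (SE), edgeR adjusted p = 0.00201) and KAT6B held 21.6% ± 0.633 (SD, n = 3) of the FPKM of the pair in vehicle and 17.7% ± 1.03 in VPA (exact permutation test, two-sided, p = 0.1). KAT7, the enzyme of the HBO1 complex, fell (log2 fold change -0.50 ± 0.10 (SE), edgeR adjusted p = 0.00335), and so did BRD1, a scaffold of that complex (log2 fold change -0.53 ± 0.10 (SE), edgeR adjusted p = 0.00295). KAT2B (PCAF) fell from 754, 952 and 1259.9 to 622, 618 and 571 (log2 fold change -0.72 ± 0.17 (SE), edgeR adjusted p = 0.00811), whereas its paralog KAT2A stood at 1112–1524 and 1064–1256 and did not pass (log2 fold change -0.19 ± 0.13 (SE), edgeR adjusted p = 0.283). KAT8 lay at the threshold (edgeR adjusted p = 0.0494). KAT5 (log2 fold change 0.05) and KAT14 (log2 fold change 0.32) did not pass, although all VPA libraries lay above all vehicle libraries for KAT14.

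Among readers of acetylated histones, the BET protein BRD2 fell from 4537–4932 to 3634–3978 (log2 fold change -0.33 ± 0.09 (SE), edgeR adjusted p = 0.0198). BRD3, of the same family, gave -0.07 ± 0.10 and did not pass (edgeR adjusted p = 0.626). The ARID proteins ARID4A and ARID4B, subunits of a SIN3 deacetylase complex, were both lower (-0.43 ± 0.13 and -0.61 ± 0.13, edgeR adjusted p = 0.0292 and 0.00435), and the other 5 ARID genes of that class did not pass.

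Histone methyltransferases fell in part. KMT5B, which builds di- and trimethylated lysine 20 of histone H4, stood at 1489.8, 1763 and 1911 in vehicle, 797, 810.1 and 818 with VPA and 901, 916 and 990.2 with VPA+Rapamycin. The VPA libraries lay within a narrow band below all vehicle libraries (log2 fold change -1.10 ± 0.12 (SE), edgeR adjusted p = 1.01e-04), the lowest level relative to vehicle of any member called, at 47.0%. KMT5C, the paralog with the same product, gave -0.33 ± 0.16 and did not pass (edgeR adjusted p = 0.129). SETD5, a SET-domain protein linked to intellectual disability, fell from 7368, 6602 and 7086 to 4142, 3902 and 4062 (log2 fold change -0.81 ± 0.09 (SE), edgeR adjusted p = 1.47e-04). Of the 7 KMT2 and SETD1 genes 3 fell and none rose. Most of them write methylation of lysine 4 of histone H3, although KMT2E is not known to do so by itself. KMT2A (MLL1) fell from 3199–3683 to 2201–2386 (log2 fold change -0.61 ± 0.10 (SE), edgeR adjusted p = 0.00109), and KMT2E and KMT2B fell too (edgeR adjusted p = 0.0387 and 0.0322). KMT2D, the Kabuki syndrome gene, stood at 1115–1821 in vehicle and 1043–1476 in VPA and did not pass (log2 fold change -0.29 ± 0.18 (SE), edgeR adjusted p = 0.235). The H3 lysine 9 writers EHMT1 (-0.24 ± 0.11) and EHMT2 (-0.34 ± 0.15) and the H3 lysine 36 writer SETD2 (-0.25 ± 0.12) did not pass either, nor did SETD7 (-0.04 ± 0.12).

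EZH1 and EZH2 are the alternative enzymes of Polycomb repressive complex 2 (PRC2), which methylates lysine 27 of histone H3. EZH1, prominent in non-dividing cells, fell from 1097, 981 and 957 to 545, 521 and 599.7, without overlap (log2 fold change -0.88 ± 0.12 (SE), edgeR adjusted p = 3.50e-04). EZH2, prominent in dividing progenitors, stood at 2933, 3246 and 2809 in vehicle and at 2739, 2694 and 2451 in VPA and did not pass (log2 fold change -0.20 ± 0.10 (SE), edgeR adjusted p = 0.151). EZH1 accounted for 19.5, 16.4 and 18.1% of the FPKM of the pair in the vehicle libraries and 11.4, 11.1 and 13.7% in VPA, again without overlap (exact permutation test, two-sided, p = 0.1). Of 9 other PRC2 subunits, which the rule does not name, 5 were lower and none higher. The 5 were the accessory subunits MTF2 (-0.60), PHF1 (-0.62), PHF19 (-0.51), AEBP2 (-0.45) and JARID2 (-0.40), while the core subunits EED, SUZ12, RBBP4 and RBBP7 did not pass.

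Histone demethylases went both ways, with 6 of 17 tested lower and 2 higher. KDM6B (JMJD3), which removes the Polycomb mark and is needed for neuronal commitment, fell from 2218, 2143 and 2077 to 1353, 1046 and 1262 (log2 fold change -0.83 ± 0.12 (SE), edgeR adjusted p = 4.49e-04). KDM6A (UTX), with the same substrate, fell from 667, 859 and 1072 to 624, 637 and 554 (log2 fold change -0.53 ± 0.16 (SE), edgeR adjusted p = 0.0295), with a wide vehicle group. KDM5B, an eraser of H3 lysine 4 methylation, fell from 6335–6538 to 4106–4847 (log2 fold change -0.51 ± 0.10 (SE), edgeR adjusted p = 0.00255), and its X-linked relative KDM5C did not pass (log2 fold change -0.31 ± 0.13 (SE), edgeR adjusted p = 0.0867). The H3 lysine 36 demethylases KDM2B and KDM2A were lower (-0.55 ± 0.10 and -0.40 ± 0.10, edgeR adjusted p = 0.00212 and 0.0109), as was the H3 lysine 9 demethylase KDM3A (edgeR adjusted p = 0.0283), while KDM7A did not pass (log2 fold change -0.37 ± 0.13 (SE), edgeR adjusted p = 0.0577). Against this, KDM4C, which acts on lysines 9 and 36 of H3, rose from 421, 444 and 449 to 758, 696 and 668 (log2 fold change 0.68 ± 0.12 (SE), edgeR adjusted p = 0.00151). KDM1B (LSD2) rose from 456, 416 and 439 to 705, 717 and 620.4 (log2 fold change 0.63 ± 0.12 (SE), edgeR adjusted p = 0.00273), whereas its abundant paralog KDM1A (LSD1) stood at 6014–6281 and 5838–5992 (log2 fold change -0.06 ± 0.09 (SE), edgeR adjusted p = 0.628).

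Of the 8 arginine methyltransferases 2 were higher and none lower, with a median log2 fold change of 0.041, where 16.4% of all genes were higher and 15.7% lower. These enzymes methylate arginines of histones and of RNA-binding proteins. PRMT6 rose from 622, 545 and 519 to 817, 995 and 936 (log2 fold change 0.69 ± 0.13 (SE), edgeR adjusted p = 0.00203). PRMT5, the main enzyme for symmetric arginine methylation, rose from 841, 823 and 678 to 1023, 1142 and 1005 (log2 fold change 0.43 ± 0.12 (SE), edgeR adjusted p = 0.0204). PRMT1 (-0.20 ± 0.11) and the neural PRMT8 (0.08 ± 0.13) did not pass.

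On the side of DNA methylation the erasers fell and the writers did not pass. TET1 went from 1884, 2004 and 2105 to 1245, 1012 and 1023 (log2 fold change -0.88 ± 0.12 (SE), edgeR adjusted p = 3.19e-04). TET2 was 1130.3, 1409 and 1856 in vehicle, 702, 727 and 761 with VPA and 956, 904 and 1122 with VPA+Rapamycin, with the vehicle group widely spread but above all VPA libraries (log2 fold change -1.02 ± 0.16 (SE), edgeR adjusted p = 0.00106). TET3 fell from 1439, 1644 and 1756 to 1071, 1038 and 1051 (log2 fold change -0.63 ± 0.11 (SE), edgeR adjusted p = 0.00177). The maintenance enzyme DNMT1 stood at 3236, 3257 and 2238 in vehicle and 3223, 3691 and 3483 in VPA and the groups overlapped (log2 fold change 0.24 ± 0.14 (SE), edgeR adjusted p = 0.204). The de novo enzymes DNMT3A and DNMT3B gave -0.04 ± 0.11 and 0.12 ± 0.12 (edgeR adjusted p = 0.782 and 0.49). UHRF1, the partner that guides DNMT1 and lies outside the rule, rose (log2 fold change 0.69 ± 0.12 (SE), edgeR adjusted p = 0.00172).

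Partners and related enzymes that the rule does not name were counted from fixed lists. Of 16 further BAF and PBAF subunits 1 was higher and 4 lower with VPA. ACTL6A, the actin-related subunit of progenitors, rose (0.41 ± 0.11), its neuronal counterpart ACTL6B did not pass (-0.52 ± 0.24), and SS18L1, PHF10, PBRM1 and DPF2 fell. Among 10 COMPASS partners, which serve the H3 lysine 4 writers, 2 were higher (CXXC1 and ASH2L) and PAGR1 was lower (log2 fold change -0.91 ± 0.13 (SE), edgeR adjusted p = 6.38e-04). Of 8 NuRD subunits other than deacetylases GATAD2A was higher, GATAD2B and MTA1 lower. Of 17 other writers and erasers 9 were lower and 2 higher. The acetyltransferases CREBBP (-0.55 ± 0.10) and EP300 (-0.35 ± 0.10) were among the lower, with ASH1L the lowest (log2 fold change -0.82 ± 0.11 (SE), edgeR adjusted p = 3.32e-04). The higher were UHRF1 and HAT1 (0.63 ± 0.14), the latter also an acetyltransferase. The 16.4% and 15.7% of all genes given above are the background for these lists too.

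The second comparison asked what Rapamycin added to VPA, and few members passed. In it 5 of 100 members were higher, where 3.01% of 17317 genes tested were, and none was lower by edgeR, where 3.73% were. At an unadjusted p under 0.05 there were 22 higher and 8 lower members, and DESeq2 called 9 higher and 2 lower (BRD7 and DNMT3B). The median log2 fold change of members was 0.034, against 0.0039 for all genes tested, and in 27 of 100 members the groups did not overlap, against 25.5% of all genes. CHD6 went from 1393, 1444 and 1421 in VPA to 1946, 1879 and 1908 in VPA+Rapamycin, where vehicle was 2502, 2161 and 2268 (log2 fold change 0.43 ± 0.07 (SE), edgeR adjusted p = 0.00113). TET2 rose to the levels given above (log2 fold change 0.45 ± 0.09 (SE), edgeR adjusted p = 0.00718). BRD8, a subunit of an acetyltransferase complex, rose from 1785, 1681 and 1626 to 2189, 2041 and 2149 (log2 fold change 0.33 ± 0.07 (SE), edgeR adjusted p = 0.0106), although 132 bases of its exons are shared with KIF20A on the opposite strand, a gene of cell division with a mean count 73.3% of that of BRD8. CHD2 (log2 fold change 0.29 ± 0.07 (SE), edgeR adjusted p = 0.0222) and KDM6B (log2 fold change 0.33 ± 0.10 (SE), edgeR adjusted p = 0.0487) were the other 2. SMARCA2 did not pass between the treated groups (log2 fold change -0.29 ± 0.11 (SE), edgeR adjusted p = 0.134). When all 9 libraries shared 1 estimate of spread only CHD6 was called. The calls of BRD8, CHD2, KDM6B and TET2 were each lost without at least 1 library, and fits without 1 library gave 2 (without VPA replicate 2, VPA replicate 3 or VPA+Rapamycin replicate 3) to 9 (without VPA+Rapamycin replicate 2) higher.

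The third comparison set VPA+Rapamycin against vehicle, the same vehicle libraries as in the first, so that its estimates are not independent of those above. Here 6 of 100 members were higher and 21 lower, where 9.81% and 9.22% of 17383 genes tested were. The median log2 fold change was -0.19, against -0.00087 for all genes, and in 48 members the groups did not overlap, where 38.5% of all genes had no overlap. SMARCA2 was 5.57-fold above vehicle (log2 fold change 2.48 ± 0.21 (SE), edgeR adjusted p = 1.26e-04). KDM4C (0.76 ± 0.12), PRMT6 (0.81 ± 0.12), KDM1B (0.51 ± 0.12) and CHD5 (1.24 ± 0.34) were also higher. SMARCD3, a SWI/SNF subunit known from heart and muscle, was called in this comparison, with normalized counts of 434, 429.7 and 347 in vehicle, 483, 458 and 574 with VPA and 581, 635 and 583 with VPA+Rapamycin (log2 fold change 0.56 ± 0.13 (SE), edgeR adjusted p = 0.0156, against log2 fold change 0.31 ± 0.14 (SE), edgeR adjusted p = 0.116 for VPA over vehicle). On the other strand CHPF2 overlaps its exons by 64 bases.

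The lowest p-values among the lower genes belonged to SETD5 (log2 fold change -0.82 ± 0.10 (SE), edgeR adjusted p = 6.36e-04), CHD2 (log2 fold change -0.78 ± 0.10 (SE), edgeR adjusted p = 7.60e-04), CHD3 (log2 fold change -0.90 ± 0.12 (SE), edgeR adjusted p = 9.07e-04) and KMT5B (log2 fold change -0.89 ± 0.12 (SE), edgeR adjusted p = 0.00117). KAT6B (-0.83 ± 0.14), TET1 (-0.66 ± 0.12), EZH1 (-0.57 ± 0.11), ARID2 (-0.59 ± 0.13) and KDM6B (-0.50 ± 0.11) followed. Next came BRD1 (-0.45 ± 0.10), KDM2B (-0.45 ± 0.10), CHD9 (-0.49 ± 0.12), KDM2A (-0.39 ± 0.10), KAT7 (-0.40 ± 0.11) and TET3 (-0.43 ± 0.12), with edgeR adjusted p from 0.013 to 0.0262. TET2 (-0.57 ± 0.17), KDM5B (-0.34 ± 0.09), ARID4B (-0.51 ± 0.14) and BRD2 (-0.33 ± 0.10) passed with edgeR adjusted p from 0.0269 to 0.0403. BRD9 (log2 fold change -0.37 ± 0.11 (SE), edgeR adjusted p = 0.0405) was lower here, close to the threshold. CHD6 (log2 fold change -0.28 ± 0.10 (SE), edgeR adjusted p = 0.0769), KMT2A (log2 fold change -0.35 ± 0.11 (SE), edgeR adjusted p = 0.0511), KAT6A (log2 fold change -0.29 ± 0.11 (SE), edgeR adjusted p = 0.0888) and ARID1B (log2 fold change -0.25 ± 0.10 (SE), edgeR adjusted p = 0.115) did not pass. None of the 7 KMT2 and SETD1 genes was called, although KMT2A, with KAT2B, PRMT5 and SMARCD2, passed when the replicate number was a block. With that block 20 of the 21 lower calls and all 6 higher calls were kept. The calls of SMARCD3, CHD5 and KDM1B among the higher, and of 14 of the 21 lower members, ARID2, KDM6B and BRD9 among them, were lost without at least 1 library. The count of lower members fell to 8 without vehicle replicate 2, VPA+Rapamycin replicate 1 or VPA+Rapamycin replicate 2 and to 9 without VPA+Rapamycin replicate 3, and rose to 34 without vehicle replicate 3. The count of higher members fell to 3 without VPA+Rapamycin replicate 1 or 3.

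Set side by side, the 33 genes lower with VPA had VPA means of 47.0 to 81.6% of vehicle, with a median of 69.0%, and VPA+Rapamycin means of 53.8 to 95.4%, with a median of 76.0%. The genes were picked on the vehicle and VPA libraries, so a smaller distance in the VPA+Rapamycin group is in part fixed by the choice and was not tested. Differences between genes in this respect were not tested. CHD3 stood at 53.3% and 53.8% of vehicle, SETD5 at 57.5% and 57.0%, and KAT6B at 55.0% and 56.6%, whereas CHD6 stood at 61.4% and 82.7% and TET2 at 49.8% and 67.9%. Of these 5 only CHD6 and TET2 passed between VPA+Rapamycin and VPA. KDM3A stood at 77.3% and 95.4%, but its VPA and VPA+Rapamycin libraries overlapped and it did not pass between them (log2 fold change 0.31 ± 0.10 (SE), edgeR adjusted p = 0.0663), unless the replicate number was a block. The 7 genes higher with VPA ranged from 124% (BRD7) to 685% (SMARCA2) of vehicle in VPA and from 105% to 560.0% for the same genes in VPA+Rapamycin.

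**Figure D3:**
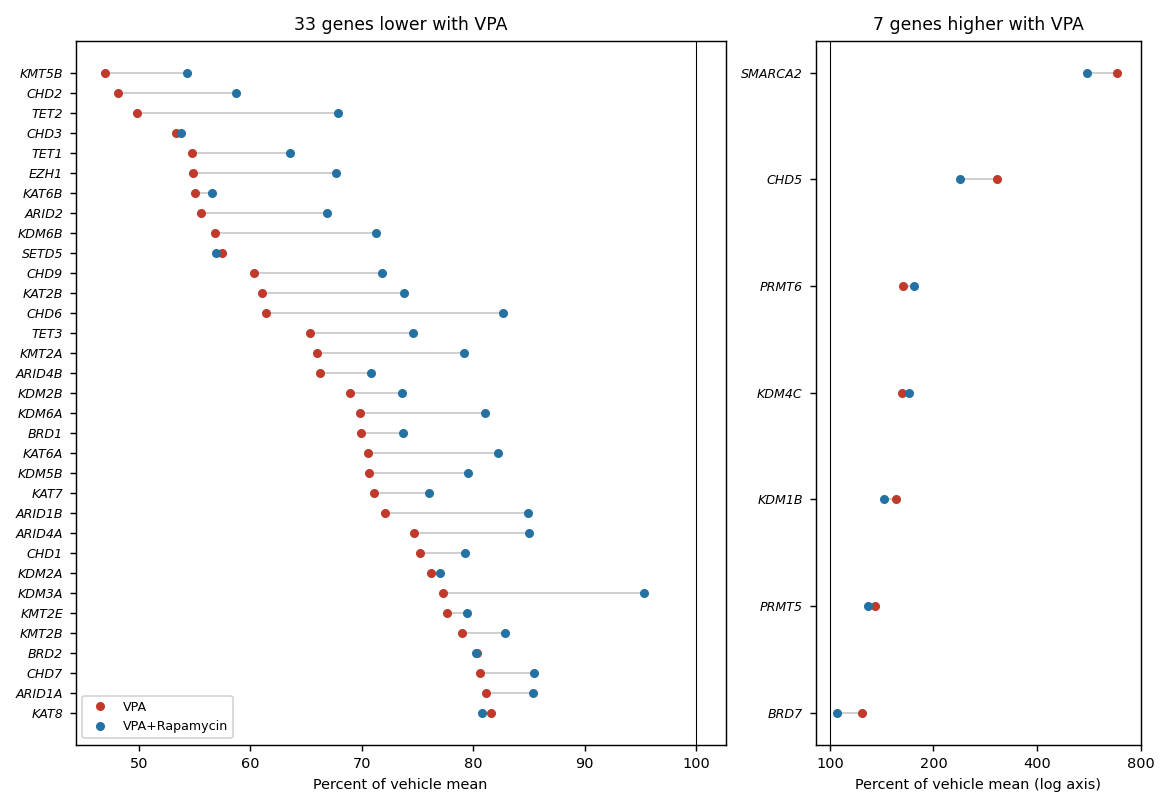
Group means in VPA (red) and VPA+Rapamycin (blue) as percent of the vehicle mean (x axis, log axis on the right) for the 33 members lower and 7 higher with VPA, means of 3 libraries without error bars. CHD3, SETD5 and KAT6B hold both points together, while CHD6 and TET2, which passed between the treated groups, show the blue point to the right of the red one.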

How the data were processed

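Poly(A)-selected RNA from 9 libraries was aligned by the authors with HISAT2 2.0.5 and counted with featureCounts 1.5.0-p3, as the submitters' processing notes give them. The count columns the authors deposited hold raw read counts per gene, in 3 tables, 1 per pair of groups. The deposited FPKM columns are the authors' values and served only to compare levels between genes. The authors' fold changes, p-values and adjusted p-values for each pair were also deposited and were not used, and 18 further columns of values per sample were not used. Genome build and annotation are not given in the sources used here; gene coordinates are those of the tables, and all 102 members have the same coordinates in GENCODE 29 (GRCh38), from which exon overlaps were taken.

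Each pair of groups was fitted on its own table with edgeR 4.0.16 (R 4.3.3): filterByExpr at its defaults, TMM factors, the quasi-likelihood F test without a block, and Benjamini-Hochberg adjustment over all genes tested, with an adjusted p of at most 0.05 as the threshold. Standard errors were taken from the fold change and its F. Alternatives were DESeq2 1.42.0, upper-quartile scaling, other filters, 1 fit of all 9 libraries, protein-coding genes alone, a minimum fold change, a block on the replicate number, and leaving out each library. Total counts of 15290325 to 17417368 per library set the counting precision.

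Named genes were, in each comparison, the 15 members raised and the 15 lowered with the smallest p among those past the threshold, or all where fewer, and a list of core subunits and enzymes given regardless of change. Members, roles, partner lists and markers were chosen with earlier results of these data known. Other members that are named were chosen after their values were seen. Promoters came from RefSeq (GRCh38.p14). 1 member enters the counts but is not reported by name here.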

Additional observations from a re-analysis of the deposited data

How the results depend on the processing

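No call of a member changed sign in any alternative. Of the 33 members lower with VPA 22 kept their call in all 13 alternatives that refit the genes, among them CHD2, KMT5B, SETD5, KAT6B, EZH1 and TET1 to TET3, and 5 of the 7 higher did (SMARCA2, CHD5, KDM4C, PRMT6 and KDM1B). Of the calls for VPA+Rapamycin against vehicle 7 of 21 lower and 3 of 6 higher kept it, and for VPA+Rapamycin against VPA 1 of 5 (CHD6).

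Asking for a log2 change of 1 or more in either direction left 2 higher and 3 lower members for VPA against vehicle, 0 higher for VPA+Rapamycin against VPA, and 2 higher and 0 lower for VPA+Rapamycin against vehicle. The 5 members higher with added Rapamycin became 9 with DESeq2, 9 with no filter on low counts, 8 with at least 10 counts in every library, 10 among protein-coding genes only and 1 with all 9 libraries in one fit, and the 0 lower became 2 with DESeq2. Leaving out 1 library gave 5 to 10 higher and 22 to 50 lower members for VPA against vehicle, 2 to 9 and 0 to 1 for VPA+Rapamycin against VPA, and 3 to 9 and 8 to 34 for VPA+Rapamycin against vehicle. Fits without a library test 3 against 2 libraries; the cause of the other shifts was not tested.

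All groups carry the replicate numbers 1 to 3, and what a number stands for is not tied to a clone here. Same-numbered libraries deviated together only weakly, with correlations of -0.056 to 0.042, -0.016 to 0.057 and 0.054 to 0.146 in the 3 comparisons. When replicate number entered the fit as a block, 6 members were higher and 26 lower for VPA against vehicle, 6 and 0 for VPA+Rapamycin against VPA, and 7 and 23 for VPA+Rapamycin against vehicle. Depth limits the least abundant members: KDM4E and KDM4F could not be tested, and SETD9, KDM8 and CHD5 rest on fewer than 120 normalized counts per library.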
